A study of Mus musculus with 18 samples.

Results

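The genes described here are the splicing factors of mouse liver whose symbols begin with Srsf, Hnrnp, Sf3a, Sf3b, U2af, Tra2a or Tra2b, together with the kinases Clk1 to Clk4. A search of the symbols found 49 rows with 48 different symbols among the 14451 genes of the table, since U2af1l4 stands there under 2 identifiers. By symbol they are 10 SR proteins, 2 Transformer-2 proteins, 4 CLK kinases, 4 U2AF rows, 9 subunits of SF3 and 20 hnRNPs. The search used symbols alone and no measured value, although the genes were chosen with earlier results of these data known.

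The livers came from WT male mice aged 8 to 9 weeks that lived in a cycle of 12 h of light and 12 h of darkness. Livers were taken at zeitgeber times (ZT, hours after lights on) 1, 5, 9, 13, 17 and 21, with 3 livers from 3 different mice per time point and 18 in all, and polyadenylated RNA of the whole organ was sequenced. More mice were kept at each time point, and those with the best RNA were chosen. No genotype or treatment other than the time of day was varied, and no animal was followed over time.

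Introns are removed from pre-mRNA by the spliceosome, and which exons are kept depends on proteins bound near them. SR proteins usually bind exons and favour their inclusion, Transformer-2 proteins act with them, and CLK kinases phosphorylate their serine and arginine rich tails. U2AF reads the end of the intron, SF3 is the part of the U2 particle that sits at the branch point, and hnRNPs coat pre-mRNA and often oppose inclusion. In liver, clock, feeding and body temperature are all known to vary over the day, and splicing of some exons varies with them.

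The deposited value of a gene in a liver, called the normalized value below, is an estimated read count plus 0.5 reads, scaled to 1000000 reads of a library size that the authors set. Each liver had 10268168 to 23242842 estimated reads, and the deepest liver was 1 of the 3 at ZT5. Among the splicing factors the fewest estimated reads in any liver were 24.5, so no member was at the lowest value of a library. Values are not divided by transcript length, so levels are compared here only between livers for the same gene. The core clock gene Arntl checked the time labels, with 31.6 ± 1.9 at ZT1 and 1.31 ± 0.30 at ZT9 (SD, n = 3 livers each). Hepatocyte markers such as Alb were all present, with a summed value between 88130 and 117700. The hepatocyte sum at ZT9, from 88130 to 89260, was below that of every liver at ZT1, ZT13, ZT17 and ZT21, and it ranged from 106200 to 117700 at ZT17. Summed Kupffer cell markers (6 of 6 present) ranged from 174 to 236 at ZT5, from 87.7 to 206 at ZT17 and from 88.8 to 138 at ZT21, and those of sinusoidal endothelium (6 of 6 present) from 195 to 231, 108 to 199.7 and 111 to 168. The Kupffer cell and endothelial sums were thus lower at ZT21 than at ZT5 in every liver. The part of the 3 sums in the differences below was not tested. In whole liver, fewer cells of a type and less RNA per cell cannot be told apart.

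Every gene of the table was fitted with a 24 h cosine on log2(value + 1) and tested by limma, and also by the rank test JTK, with p-values adjusted over 14449 tested genes and called below 0.05. The 24 h limma test called 18 of the 49 splicing factors, or 36.7%, against 35.3% of all genes tested, a share near the background. JTK called 11 of 49 (22.4%, against 14.1% of all genes), and all 11 were also called by limma, where both tests together called 14% of all genes. The limma test among the 6 time points, which assumes no curve, called 16 of 49 (26.3% of all genes). A 12 h term beside the 24 h curve was called for 1 of 49 (0.872% of all genes), and 6 (12.2%) had an unadjusted p below 0.05, against 12.6% of all genes. In 36 of 49 the 3 livers of the highest and of the lowest time point did not overlap, against 70.8% of all genes. No call was made for 28 of the 49 by any of these 4 tests, and their fitted ratios lay between 1.00 and 1.29.

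The swings were small. The fitted 24 h peak-to-trough ratio, which is on the log2(value + 1) scale and cannot fall below 1, had a median of 1.19 over the 49 genes and of 1.25 over all genes tested. It ran from 1.16 to 1.98 in the 18 called genes and from 1.00 to 1.29 in the other 31. In nearly flat genes the range of 1 SE is rough. Its lower end can lie below 1, although the ratio itself cannot. Livers of the same time point were close to each other, with a median coefficient of variation of 8.77% for the splicing factors against 13.8% for all genes. A wider list of splicing genes, described below, had 8.58%. All genes include ones of low value, since 12480 of 14449 had a mean value of at least 1, while the lowest mean among the splicing factors was 4.23.

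Of the 18 called genes, 13 had their fitted peak in the dark and 5 in the light. Peaks in the dark were called for 17.1% of all genes tested and peaks in the light for 18.2%. Night peaks were thus 72.2% of the called splicing factors and 48.4% of called genes in all, and 12 of the 18 (66.7%, against 33.4%) fell between ZT16 and ZT24. The division depended on the library sizes. With every liver rescaled to a plain total of 1000000, 10 of 21 called splicing factors peaked in the dark and 11 in the light, or 47.6% in the dark against 32.1% of called genes in all. That rescaling multiplied all values of a liver by a single factor. On the log2 scale the mean of this factor was 0.06 at ZT5 and -0.07 at ZT17. It lost the calls of Srsf2 and Hnrnpf, added Sf3b1, Hnrnpa0, Hnrnpa2b1, Hnrnpd and Hnrnpdl with peaks in the light, and moved the peak of Hnrnpu from 23.2 h to 0.01 h, just past lights on.

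**Figure D1:**
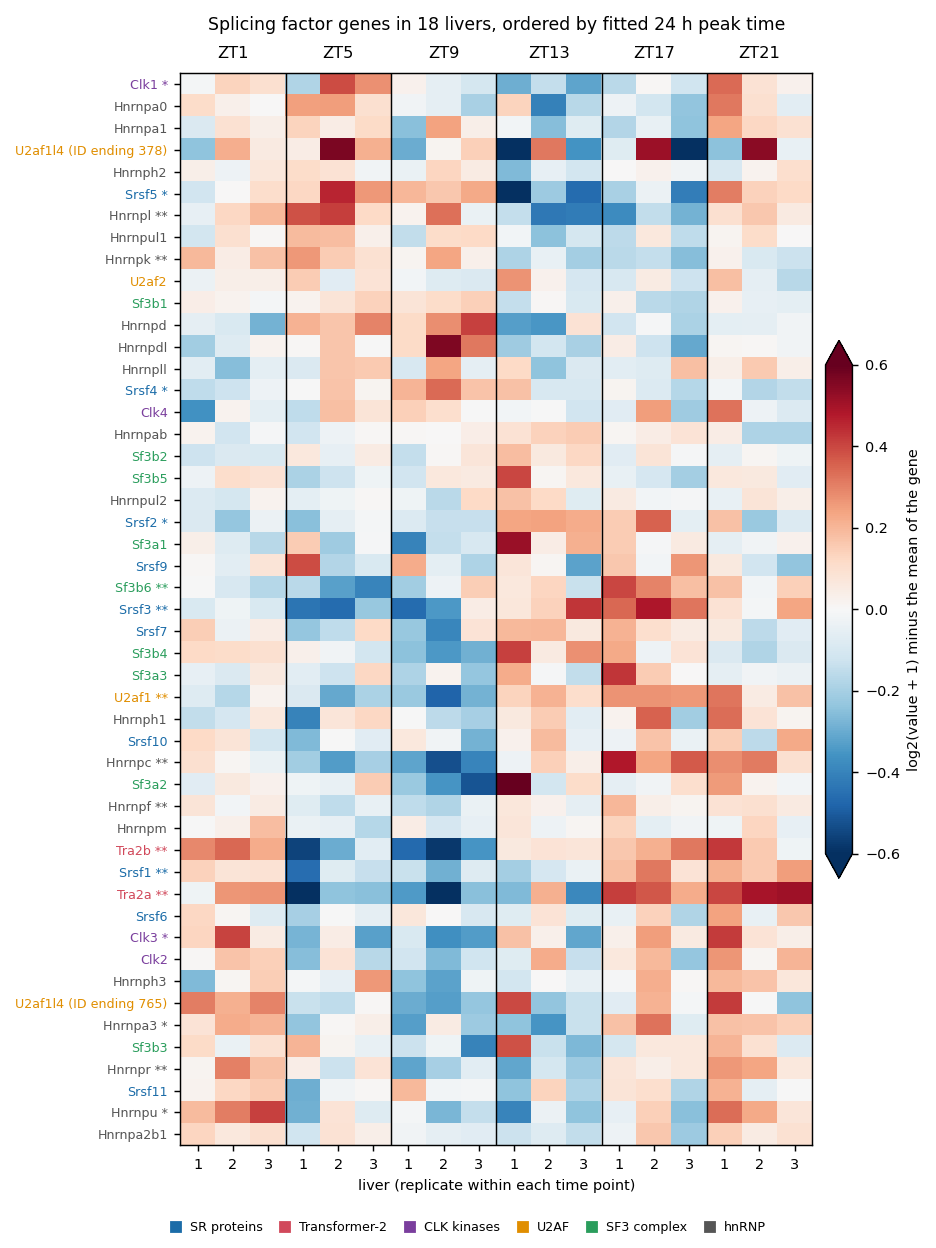
Each row is 1 of the 49 splicing factor genes and each column 1 of the 18 livers, grouped by zeitgeber time, and colour gives log2(value + 1) minus the mean of the gene. Rows run from the earliest to the latest fitted 24 h peak, and 1 star marks a call by the 24 h limma test and 2 stars a call by both limma and JTK. Strong contrasts between ZT5 or ZT9 and ZT17 or ZT21 are seen in the lower part, in genes such as Tra2a, Hnrnpc, Srsf3 and Tra2b.

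**Figure D2:**
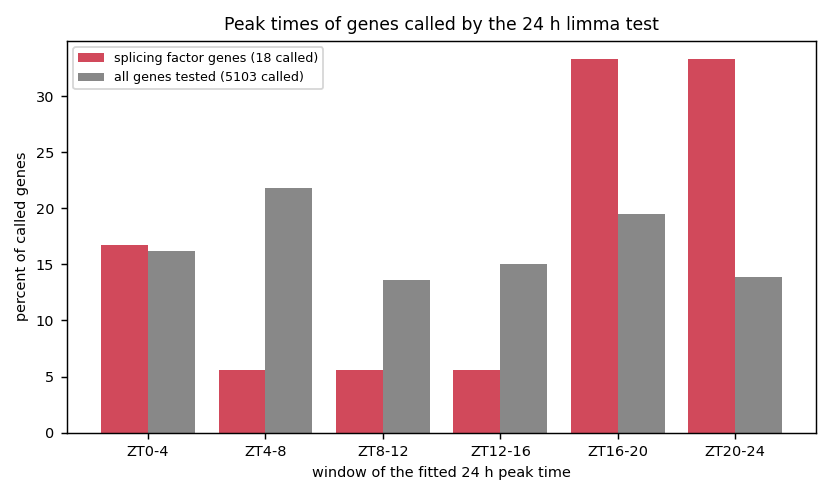
Bars give the percent of called genes whose fitted 24 h peak fell into each window of 4 h, for 18 splicing factor genes and 5103 genes in all. Each of the last 2 windows, from ZT16 to ZT24, holds 33.3% of the splicing factors and 19.5% or 13.9% of called genes in all. With plain totals, which are not drawn, 10 of 21 called splicing factors (47.6%) peaked in the dark, against 32.1% of called genes in all.

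Promoter sequence was looked at because 9 of the 11 genes called by both tests had a fitted peak at night. The night share of all genes called by both tests was not counted, and the 9 of 11 was not recounted with plain totals. RefSeq gave it for 42 of the 48 symbols, all but Sf3b5, Hnrnpll, U2af2, Hnrnpul2, Sf3b4 and Clk1. The bases before the RefSeq start site of GRCm38.p6, up to 250 and cut where a GENCODE gene model begins, are printed for 5 night-peaking genes of the Transformer-2, SR and hnRNP families that both tests called. Capitals mark TGACG or its reverse complement, the half-site that lies within the cAMP response element TGACGTCA. The stretches are chr6:49264053-49264302 (minus strand) for Tra2a, chr16:22266006-22266255 (minus strand) for Tra2b, chr11:88047123-88047372 (plus strand) for Srsf1, chr17:29032410-29032627 (plus strand) for Srsf3 and chr14:52104029-52104271 (minus strand) for Hnrnpc, each written from 5′ to 3′ on the strand of the gene.
Tra2a: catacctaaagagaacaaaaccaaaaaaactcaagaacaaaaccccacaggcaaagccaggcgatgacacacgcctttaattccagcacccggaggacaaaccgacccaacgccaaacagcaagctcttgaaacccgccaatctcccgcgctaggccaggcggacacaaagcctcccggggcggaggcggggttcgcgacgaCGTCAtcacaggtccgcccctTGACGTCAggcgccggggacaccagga
Tra2b: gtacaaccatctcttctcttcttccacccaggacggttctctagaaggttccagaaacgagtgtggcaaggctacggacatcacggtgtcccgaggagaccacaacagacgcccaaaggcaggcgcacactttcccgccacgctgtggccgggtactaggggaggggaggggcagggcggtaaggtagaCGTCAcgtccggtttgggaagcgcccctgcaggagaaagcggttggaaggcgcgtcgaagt
Srsf1: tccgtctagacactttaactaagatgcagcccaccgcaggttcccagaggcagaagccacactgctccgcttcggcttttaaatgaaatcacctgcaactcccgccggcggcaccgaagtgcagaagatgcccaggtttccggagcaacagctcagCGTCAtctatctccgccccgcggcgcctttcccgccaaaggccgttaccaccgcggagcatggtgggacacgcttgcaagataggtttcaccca
Srsf3: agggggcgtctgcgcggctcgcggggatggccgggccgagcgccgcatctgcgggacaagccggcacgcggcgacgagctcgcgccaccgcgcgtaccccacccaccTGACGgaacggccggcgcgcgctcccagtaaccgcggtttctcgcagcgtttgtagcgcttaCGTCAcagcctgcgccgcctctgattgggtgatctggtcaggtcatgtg
Hnrnpc: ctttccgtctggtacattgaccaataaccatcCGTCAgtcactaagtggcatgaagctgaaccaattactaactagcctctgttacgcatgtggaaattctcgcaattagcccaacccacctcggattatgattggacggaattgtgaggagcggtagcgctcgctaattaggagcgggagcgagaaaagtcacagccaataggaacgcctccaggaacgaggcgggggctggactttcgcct

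TGACG on either strand was in the 250 bases of 23 of the 42 splicing factor genes, or 54.8%, against 29.5% of the 10326 tested genes that have such a sequence and 19.8% of all 27025 genes with one. It was in 10 of the 11 genes called by both tests, all but the night-peaking Sf3b6, and in 13 of the other 31. The share among all genes called by both tests was not counted, so these counts have no matching background. Every printed stretch carries the half-site. Tra2a holds it 3 times, of which 2 overlap within its TGACGTCA, 1 on each strand, and Srsf3 holds it 2 times. The day-peaking Hnrnpl and Hnrnpk hold it too. The whole element TGACGTCA was in 2 of the 42, Clk4 and Tra2a (4.76%, against 2.95% of tested genes). The E-box CACGTG, bound by CLOCK and BMAL1, was in Clk2, Hnrnpa3, Hnrnpd and Hnrnpf, which is 9.52% against 9.69%. The D-box TTATGTAA was in 0 of the 42 (0.639% of tested genes), and AGGTCA, the half-site of ROR and REV-ERB receptors, was in 4 (9.52% against 13.7%). GAANNTTC, from the heat shock element, was in 6 (14.3% against 6.18%), among them Hnrnpl and Tra2b. Letters common in promoters were frequent as well, with GGGCGG in 78.6% against 60.8%, CCGGAAG in 31% against 14.8% and CCAAT in 50% against 40.5%. The median GC content of the members' stretches was 61.6%, against 59.2% for tested genes. All motifs were searched on both strands of the 250 bases before any RefSeq start site of a gene. The 42 members had 56 start sites, with more than 1 for 8 members, and the start sites of other genes were not counted. The motifs were chosen after sequences had been seen, and a match is a description of letters and not a binding site.

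Both Transformer-2 genes, Tra2a and Tra2b, were higher from ZT17 to ZT1 than at ZT5 and ZT9, and Tra2a had the highest ratio of the 49. Their proteins bind GAA-rich sequences in exons and help SR proteins to include them. Tra2a (ENSMUSG00000029817, chr6:49243924-49264033, minus strand) had normalized values of 22.1, 27.2 and 27.4 at ZT1, then 13.8, 18.9 and 18.8 at ZT5, then 17.6, 13.2 and 18.8 at ZT9, then 18.6, 26.2 and 17 at ZT13, then 30.4, 29.5 and 26.4 at ZT17 and last 30.1, 32.2 and 32.5 at ZT21. All livers at ZT17 and ZT21 were above every liver at ZT5, ZT9 and ZT13, and those at ZT1 were above every liver at ZT5 and ZT9. Over the day the curve of Tra2a rose 1.98-fold (1.81 to 2.16 within 1 SE) to a peak at 20.1 ± 0.49 h (SE, n = 18 livers; limma adjusted p = 5.37e-05, JTK adjusted p = 0.0127). Tra2b (ENSMUSG00000022858, chr16:22244549-22266005, minus strand) had values of 44.5, 46.2 and 42.4 at ZT1, then 24.3, 29.2 and 34.5 at ZT5, then 25.9, 23.9 and 28.1 at ZT9, then 37.7, 38.4 and 38.1 at ZT13, then 40.6, 42.1 and 45.3 at ZT17 and last 49, 40.4 and 35.6 at ZT21. Every liver at ZT13, ZT17, ZT21 and ZT1 was above every liver at ZT5 and ZT9. The curve of Tra2b rose 1.64-fold (1.5 to 1.79 within 1 SE) to a peak at 20 ± 0.7 h (limma adjusted p = 0.00136, JTK adjusted p = 0.0431). The 2 peak times lay within 1 SE of each other. The JTK call of Tra2b held in 2 of 18 fits that left out 1 liver, while its limma call held in all 18.

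Among the SR proteins limma called 5 of 10 (Srsf1, Srsf2, Srsf3, Srsf4 and Srsf5), JTK called 2, and the ratios of the 5 others (Srsf6, Srsf7, Srsf9, Srsf10 and Srsf11) were between 1.00 and 1.16. Srsf3, a small SR protein that also serves mRNA export, had the highest ratio of the family. Srsf3 (ENSMUSG00000071172, chr17:29032628-29043373, plus strand) had values of 60.1, 62.9 and 60.3 at ZT1, then 47.1, 46.4 and 54.7 at ZT5, then 46.3, 50.3 and 66.2 at ZT9, then 67.3, 70.7 and 86.9 at ZT13, then 81.7, 90.4 and 80.5 at ZT17 and last 68.2, 63.6 and 75.8 at ZT21. Livers at ZT13 and ZT17 were all above those at ZT1, ZT5 and ZT9, and 1 liver at ZT9 stood well above the other 2. The curve of Srsf3 rose 1.65-fold (1.53 to 1.78 within 1 SE) to a peak at 17.2 ± 0.57 h (limma adjusted p = 0.000232, JTK adjusted p = 0.0104). Srsf1, which binds exonic enhancers and steers the choice of the 5′ splice site, peaked later in the night. Srsf1 (ENSMUSG00000018379, chr11:88047373-88053755, plus strand) had values of 93.9, 89.8 and 90.6 at ZT1, then 61.8, 81.1 and 77.4 at ZT5, then 77.7, 69.6 and 80.6 at ZT9, then 73.9, 79.4 and 82.9 at ZT13, then 96.6, 106 and 90.3 at ZT17 and last 98.9, 95.2 and 101 at ZT21. Every liver at ZT17, ZT21 and ZT1 was above every liver at ZT5, ZT9 and ZT13. The curve of Srsf1 rose 1.39-fold (1.31 to 1.47 within 1 SE) to a peak at 20.1 ± 0.68 h (limma adjusted p = 0.00119, JTK adjusted p = 0.0278).

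The other 3 called SR proteins were passed by limma and missed by JTK, and are named here after their values were seen. Srsf5, which binds exonic enhancers, was low at ZT13 and ZT17. Srsf5 had values of 201, 219 and 235 at ZT1, then 238, 300.1 and 262 at ZT5, then 251, 244 and 256 at ZT9, then 138, 187 and 158 at ZT13, then 190.4, 213 and 164 at ZT17 and last 270.0, 240.3 and 237 at ZT21. Livers at ZT13 and ZT17 were all below those at ZT5, ZT9 and ZT21, and those at ZT1 overlapped the lower group. The test among time points gave adjusted p = 0.0026 by limma. The curve of Srsf5 rose 1.46-fold (1.32 to 1.61 within 1 SE) with a peak at 3.2 ± 1 h (limma adjusted p = 0.0231, JTK adjusted p = 0.0679), and 3 of 18 fits without 1 liver lost the limma call. Srsf4 rose 1.24-fold (1.18 to 1.32 within 1 SE) with a peak at 8.7 ± 0.99 h (limma adjusted p = 0.0174, JTK adjusted p = 0.128), and 43% of its exon bases overlap a gene on the other strand. Srsf2 also binds exonic enhancers, and 15.6% of its exon bases overlap Mettl23 on the other strand. Srsf2 had values of 138 to 139 in the 3 livers at ZT13 and of 98.7 to 117 at ZT1, ZT5 and ZT9, so those groups did not overlap. Its curve rose 1.28-fold (1.19 to 1.37 within 1 SE) with a peak at 15.2 ± 1.1 h (limma adjusted p = 0.0273, JTK adjusted p = 0.593), a limma call that was lost with plain totals and in 6 of 18 fits without 1 liver. Srsf9 had the lowest fitted ratio of the 49, 1.00-fold (0.92 to 1.1 within 1 SE) (limma adjusted p = 0.9995), and its 18 values lay between 11.5 and 19.4.

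CLK kinases, which phosphorylate SR proteins in the nucleus, had fitted ratios of at most 1.39. Limma called Clk1 and Clk3, whose peaks lay some hours apart, and JTK called 0 of the 4. Clk1 had values of 58.2, 64.5 and 62.7 at ZT1, then 51.7, 77.2 and 71.2 at ZT5, then 59.6, 56.5 and 54.4 at ZT9, then 47.7, 53 and 46.9 at ZT13, then 52.3, 59 and 53.8 at ZT17 and last 74.6, 62.4 and 59.7 at ZT21. The 3 livers at ZT13 were below those at ZT1, ZT9 and ZT21, but 1 of the ZT5 livers was as low as they were. The curve of Clk1 rose 1.29-fold (1.2 to 1.39 within 1 SE) to a peak at 1.3 ± 1.1 h, near lights on (limma adjusted p = 0.0335, JTK adjusted p = 0.128), and 4 of 18 fits without 1 liver lost the limma call. Clk3 had values of 27, 32.9 and 25.5 at ZT1, then 20.1, 25.4 and 19.4 at ZT5, then 23, 18.8 and 19.2 at ZT9, then 27.9, 25.1 and 19.6 at ZT13, then 25.1, 29.4 and 25.5 at ZT17 and last 33.2, 26 and 25.2 at ZT21. Livers at ZT1, ZT17 and ZT21 were above those at ZT9, and those at ZT13 overlapped both sides. The curve of Clk3 rose 1.39-fold (1.28 to 1.51 within 1 SE) to a peak at 20.7 ± 0.98 h (limma adjusted p = 0.0162, JTK adjusted p = 0.158). Clk2 had a ratio of 1.23-fold (1.14 to 1.32 within 1 SE) with values from 11.9 to 17.6 (limma adjusted p = 0.0821, JTK adjusted p = 0.593). Clk4, the closest relative of Clk1, had a ratio of 1.04-fold (0.96 to 1.13 within 1 SE) with values from 28.9 to 47.2 (limma adjusted p = 0.919, JTK adjusted p = 1). Whether the curves of Clk1 and Clk4 differ was not tested.

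Of the U2AF rows 1 of 4 was called. U2af1, which recognizes the AG at the end of the intron, was called by both tests, and U2af2, its partner on the pyrimidine tract, by none. U2af1 (ENSMUSG00000061613, chr17:31647081-31658892, minus strand) had values of 32.6, 30.5 and 35 at ZT1, then 32.4, 27.7 and 30.2 at ZT5, then 29.4, 24.5 and 28.2 at ZT9, then 37.9, 40 and 37.2 at ZT13, then 41.8, 41.8 and 41.5 at ZT17 and last 43.4, 35.7 and 39.1 at ZT21. Every liver at ZT13, ZT17 and ZT21 was above every liver at ZT1, ZT5 and ZT9, and the 3 at ZT17 lay within 41.5 to 41.8. The curve of U2af1 rose 1.49-fold (1.4 to 1.58 within 1 SE) to a peak at 18.1 ± 0.57 h (limma adjusted p = 0.000262, JTK adjusted p = 0.0226). U2af2 values lay between 43.8 and 59.5 with overlap between all time points, and its ratio was 1.03-fold (0.97 to 1.09 within 1 SE), with limma adjusted p = 0.925. Whether the 2 curves differ was not tested. U2af1l4, a relative of U2af1, has 2 rows. GENCODE M21 names the gene of 1 of them Gm49396, which shares 33.6% of its exon bases with U2af1l4 and 39.2% with Igflr1 on the same strand, so that row is not plainly U2af1l4 and reads may be divided among these genes. Neither row was called (limma adjusted p = 0.111 and 0.429).

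Of the 9 SF3 subunits limma called 1, Sf3b6, and the ratios of the other 8 were between 1.04 and 1.19. Sf3b6 touches the branch point adenosine. Sf3b6 (ENSMUSG00000037361, chr12:4817544-4827659, plus strand) had values of 18.1, 16.9 and 16 at ZT1, then 16.1, 14.2 and 13.6 at ZT5, then 15.5, 17.8 and 20.2 at ZT9, then 19, 19.9 and 16.5 at ZT13, then 24.2, 22.5 and 20.7 at ZT17 and last 20.6, 17.9 and 20.1 at ZT21. All livers at ZT17 were above all livers at every other time point, although the highest at ZT21 was close. The curve of Sf3b6 rose 1.39-fold (1.3 to 1.48 within 1 SE) to a peak at 17.1 ± 0.76 h (limma adjusted p = 0.00279, JTK adjusted p = 0.0226). Sf3b4, another subunit at the branch site, was the only member called for a 12 h term. Sf3b4 (ENSMUSG00000068856, chr3:96172332-96177564, plus strand) had values of 14.1, 13.9 and 13.8 at ZT1, then 13.2, 12.7 and 11.8 at ZT5, then 10.7, 9.92 and 10.4 at ZT9, then 17.4, 13.4 and 15.8 at ZT13, then 15.3, 12.6 and 13.7 at ZT17 and last 12.1, 11.2 and 12.1 at ZT21. It was highest at ZT13 and lowest at ZT9, 4 h apart, and ZT1 was again above ZT21 and ZT5. The 12 h term rose 1.36-fold (1.29 to 1.44 within 1 SE) with peaks at 2.3 ± 0.34 h and 14.3 h (limma adjusted p = 0.0342), while the 24 h test gave adjusted p = 0.459 by limma. With samples 4 h apart, a 12 h curve rests on 3 points a cycle. Without 1 liver, 11 of 18 fits called 0 of the 49 for a 12 h term. Sf3b1, the subunit that holds the branch helix and the target of several splicing drugs, had a ratio of 1.15-fold (1.1 to 1.2 within 1 SE) with a peak at 5.5 ± 1.2 h. It just missed the threshold (limma adjusted p = 0.0573, JTK adjusted p = 0.194). Limma called Sf3b1 under 4 alternative settings but in only 1 of 18 fits without 1 liver. With both cosines in 1 model it was missed as well (limma adjusted p = 0.055).

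**Figure D3:**
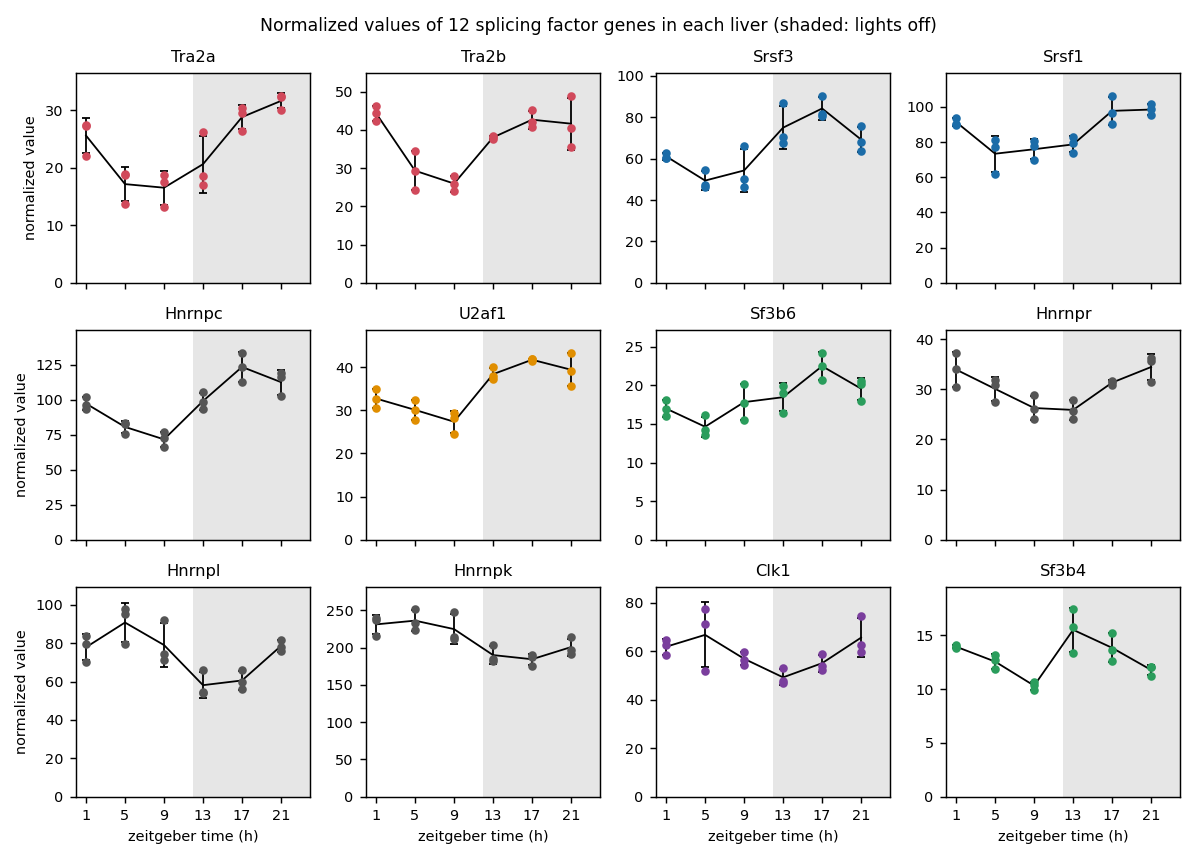
Points are the normalized values of 12 splicing factor genes in each of the 18 livers against zeitgeber time, with a line through the means and bars of 1 SD (n = 3), axes that start at 0 and shading for lights off. The first 8 panels show genes with a fitted peak in the dark, and Hnrnpl, Hnrnpk and Clk1 have a fitted peak in the light. Sf3b4 shows the drop at ZT9 before its high values at ZT13.

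The hnRNPs were the largest family, with 7 of 20 called by limma and 5 by JTK, and called members peaked in the dark and in the light. Of the 7, 5 peaked in the dark and 2 in the light, and the ratios of the 13 others were between 1.01 and 1.29. Hnrnpc, which binds runs of U and keeps U2AF off cryptic exons, had the lowest limma p of the 49. Hnrnpc (ENSMUSG00000060373, chr14:52073377-52104028, minus strand) had values of 102, 96.4 and 92.9 at ZT1, then 82.7, 75.6 and 83.2 at ZT5, then 76.6, 65.9 and 72.3 at ZT9, then 93.4, 105 and 98 at ZT13, then 134, 113 and 124 at ZT17 and last 116, 119 and 102 at ZT21. Livers at ZT5 and ZT9 were below all others, and those at ZT17 were above all at ZT1 to ZT13. The curve of Hnrnpc rose 1.65-fold (1.55 to 1.75 within 1 SE) to a peak at 19 ± 0.45 h (limma adjusted p = 2.22e-05, JTK adjusted p = 0.0127). Hnrnpr, which binds mRNA in nucleus and cytoplasm, peaked late in the night. Hnrnpr (ENSMUSG00000066037, chr4:136310942-136359447, plus strand) had values of 30.4, 37.3 and 34.1 at ZT1, then 30.9, 27.5 and 31.9 at ZT5, then 24, 26.1 and 28.8 at ZT9, then 24, 27.9 and 25.7 at ZT13, then 31.7, 30.9 and 31.4 at ZT17 and last 36.2, 35.7 and 31.5 at ZT21. Livers at ZT1, ZT17 and ZT21 were all above those at ZT9 and ZT13. The curve of Hnrnpr rose 1.35-fold (1.28 to 1.43 within 1 SE) to a peak at 22.6 ± 0.69 h (limma adjusted p = 0.00125, JTK adjusted p = 0.0349). Hnrnpf, which binds runs of G, had the lowest ratio of the called genes, 1.16-fold (1.11 to 1.21 within 1 SE), with a peak at 19.4 ± 1.1 h (limma adjusted p = 0.0314, JTK adjusted p = 0.0431). Its means were 187 ± 13.4 at ZT17 and 162 ± 8.3 at ZT9 (SD, n = 3 livers each), and with plain totals the ratio was 1.09 and the limma call was lost.

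Hnrnpl and Hnrnpk ran the other way, with fitted peaks in the light and low values at ZT13 and ZT17. The mean of Hnrnpl at ZT21, in the dark, was 78.6, near its 77.9 at ZT1 and 79.0 at ZT9. Hnrnpl binds CA repeats and Hnrnpk binds runs of C. Hnrnpl (ENSMUSG00000015165, chr7:28808541-28822266, plus strand) had values of 70.4, 79.6 and 83.6 at ZT1, then 95.4, 97.6 and 79.4 at ZT5, then 74.1, 92 and 71 at ZT9, then 65.9, 54 and 54.3 at ZT13, then 56, 65.9 and 59.8 at ZT17 and last 78, 81.8 and 75.9 at ZT21. All livers at ZT13 and ZT17 were below all livers of the other 4 time points. The curve of Hnrnpl rose 1.49-fold (1.38 to 1.61 within 1 SE) to a peak at 3.3 ± 0.74 h (limma adjusted p = 0.00229, JTK adjusted p = 0.0349). Hnrnpk (ENSMUSG00000021546, chr13:58391142-58403343, minus strand) had values of 240.3, 216 and 237 at ZT1, then 251, 233 and 224 at ZT5, then 212, 248 and 214 at ZT9, then 184, 203 and 182 at ZT13, then 187, 189.7 and 176 at ZT17 and last 214, 197 and 192 at ZT21. Livers at ZT1, ZT5 and ZT9 were above all livers at ZT13 and ZT17, and those at ZT21 overlapped both. The curve of Hnrnpk rose 1.31-fold (1.25 to 1.38 within 1 SE) to a peak at 4.3 ± 0.69 h (limma adjusted p = 0.00123, JTK adjusted p = 0.0184), and both calls held in all 18 fits without 1 liver. Hnrnpll, the near relative of Hnrnpl, was not called, with values between 24.1 and 34.2 and a ratio of 1.01-fold (0.94 to 1.08 within 1 SE) and limma adjusted p = 0.997. The difference between the 2 curves was not tested.

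A few more hnRNPs are named after their values were seen. Hnrnpu, which attaches chromatin to the nuclear scaffold, rose 1.42-fold (1.32 to 1.54 within 1 SE) with a peak at 23.2 ± 0.81 h (limma adjusted p = 0.00446, JTK adjusted p = 0.128). Hnrnpa3 rose 1.36-fold (1.27 to 1.45 within 1 SE) with a peak at 22 ± 0.85 h (limma adjusted p = 0.00629, JTK adjusted p = 0.128), and its reads could also match 23 other genes of at least 95% identity, 22 of them pseudogenes. Hnrnpd, also named AUF1, which binds AU-rich elements in mRNA, and Hnrnpdl were called by the test among time points and not by the 24 h tests. Both lie on chromosome 5. Hnrnpd had values of 35.9, 35 and 30.4 at ZT1, then 43.3, 42 and 46 at ZT5, then 40.5, 45.4 and 49.8 at ZT9, then 29.4, 29.1 and 39.7 at ZT13, then 34.3, 37.1 and 32.5 at ZT17 and last 35.8, 35.9 and 36.8 at ZT21. Livers at ZT5 and ZT9 were above all others, as a plateau in the light (limma adjusted p = 0.0209 among time points and 0.0573 for 24 h). The 24 h limma test called Hnrnpd under 3 of 4 alternative settings and in 3 of 18 fits without 1 liver. With both cosines in 1 model its 24 h limma adjusted p was 0.0156. Hnrnpdl had values of 45.1, 49.5 and 53.2 at ZT1, then 52.6, 58.8 and 52.3 at ZT5, then 56.8, 77.7 and 65.4 at ZT9, then 45, 48.5 and 45.7 at ZT13, then 54, 47.9 and 42.2 at ZT17 and last 52.8, 52.7 and 51.6 at ZT21. Its 3 livers at ZT9 included the highest value and lay above all livers outside ZT5 (limma adjusted p = 0.0299 among time points and 0.143 for 24 h).

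**Figure D4:**
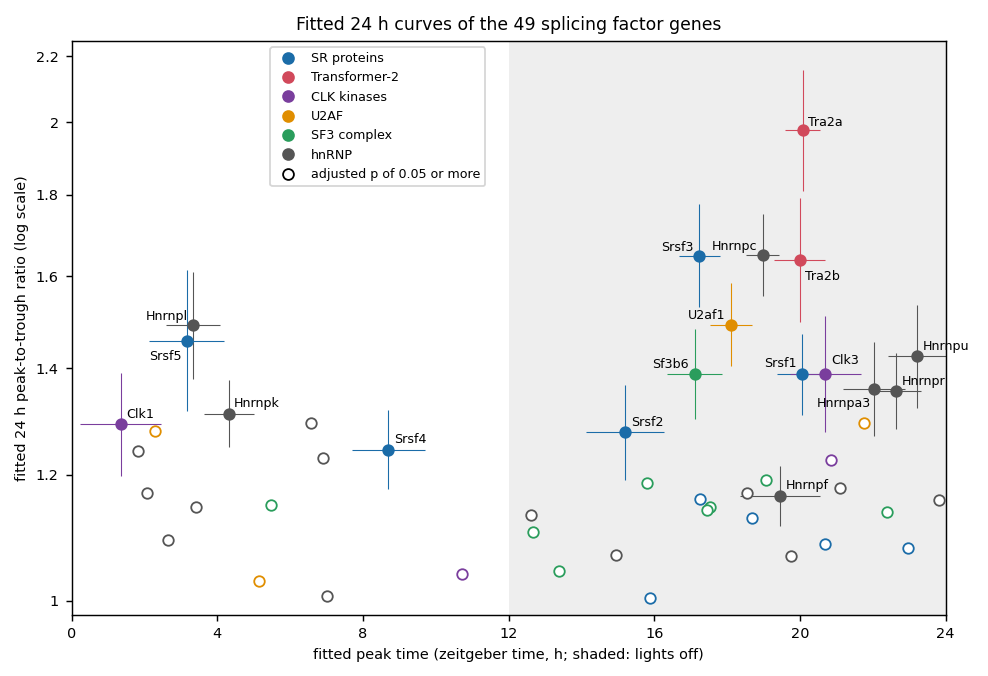
Each point is 1 of the 49 genes, with its fitted peak time in hours on the x axis and its fitted 24 h peak-to-trough ratio on a log axis, coloured by family, filled and named where the 24 h limma test called it, with bars of 1 SE. Most filled points lie between 15.2 and 23.2 h, up to 1.98-fold for Tra2a, and 5 lie between 1.3 and 8.7 h.

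Other spliceosome and splicing regulator genes had a limma share close to that of the 49. Their JTK share was below that of the 49 with periods of 20, 24 and 28 h. From a list of 132 such genes, 131 had a row, and limma called 45 of them (34.4%), JTK 17 (13%), both together 16 (12.2%), the test among time points 31 and the 12 h term 0. With a period of 24 h alone, JTK called 27 of the 131 and 10 of the 49, against 17.4% of all genes, so the lower share depended on the periods. The 12 h count at an unadjusted p below 0.05 was 12 (9.16%, against 12.6% of all genes), and with a variance trend in limma 0 passed the adjusted threshold. Their median ratio was 1.19, close to that of the 49. Of the 45, 27 peaked in the light and 18 in the dark, and of the 16 called by both tests 12 peaked in the light and 4 in the dark, while the numbers among the 49 were 2 and 9 of 11. The difference between these divisions was not tested. For genes called by both tests, the division was not counted over all genes or with plain totals. Those with the highest ratio among these 16 and reported here include both directions. Dyrk1b, a protein kinase, rose 2.53-fold (2.16 to 2.97 within 1 SE) to a peak at 4.5 ± 0.65 h (limma adjusted p = 0.000727, JTK adjusted p = 0.0278), from 3.69 ± 1.8 at ZT17 to 10.3 ± 1.3 at ZT5. Tardbp, which encodes the UG-binding protein TDP-43, rose 1.7-fold (1.59 to 1.81 within 1 SE) to a peak at 21.9 ± 0.48 h (limma adjusted p = 4.52e-05, JTK adjusted p = 0.0184). Ddx46, a helicase that helps U2 to join the branch site, peaked at 6.3 ± 0.47 h with a ratio of 1.65-fold (1.55 to 1.76 within 1 SE). Snrpd3, an Sm core protein of the snRNPs, peaked at 19.9 ± 0.6 h with a ratio of 1.55-fold (1.44 to 1.65 within 1 SE). Thrap3, an SR-related protein, peaked at 4.5 ± 0.5 h with a ratio of 1.53-fold (1.45 to 1.62 within 1 SE). Tardbp and Snrpd3 thus peaked in the night, and Dyrk1b, Ddx46 and Thrap3 in the day.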

How the data were processed

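RNA-seq of 18 mouse livers, 3 at each of 6 zeitgeber times, was analysed from 1 deposited table with a column per liver. The authors trimmed adapters with cutadapt, quantified reads per gene on GRCm38 with RSEM 1.2.20, and normalized the estimated counts with limma. Each deposited value is a linear signal, the estimated reads plus 0.5 per 1000000 reads of a library size set by the authors, and columns add up to between 941088 and 1077230. Between 39.1% and 48.0% of values per liver lie within 0.002 of a whole number of reads, so no count test was run. The library kit did not mark strand, so reads of overlapping genes on opposite strands cannot be told apart. Values sum over the isoforms of a gene.

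Of 14451 genes, 2 were at the lowest value in every liver and were left out. The log2(value + 1) of all 14449 others was fitted in R 4.3.3 with limma 3.58.1 to a 24 h cosine, to 24 h and 12 h cosines together, and to 6 time point means. JTK was rewritten from its description in Python 3.11.15 with periods of 20, 24 and 28 h and the exact null distribution for 6 untied groups of 3. The cosine orders give some time points the same rank, so this null is not exact for them and is conservative. All p-values were adjusted by Benjamini-Hochberg over the genes tested at a threshold of 0.05, with limma F tests and two-sided JTK. Replicates are different mice. Both methods were tested on simulated data. CircaN and MetaCycle, which the study also used, were not run here.

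The genes, lists and tests were chosen with earlier results of these data known. Named are Clk1 to Clk4, Tra2a, Tra2b, U2af1 and U2af2, up to 15 members called by both rhythm tests, up to 5 with the lowest p of a called 12 h term, 3 flat ones with a mean value of at least 10, and up to 6 genes of the wider list with the highest ratio among those called by both tests. 1 gene that this rule gave from the wider list is not reported here. Others are said to be named after their values were seen. Alternatives were a pseudocount of 0.1, a mean value of at least 1, plain totals, a variance trend in limma, both cosines in 1 model, a 24 h period alone in JTK and leaving out each liver. Coordinates are from GENCODE M21 on GRCm38 and promoter sequences from RefSeq on GRCm38.p6. Marker lists of stellate cells, cholangiocytes, lymphocytes, neutrophils and erythroid cells had summed values of 154 to 275, 31.5 to 57.5, 0.865 to 4.18, 1.00 to 4.43 and 99.6 to 412, with 3 of 6 lymphocyte and 3 of 4 neutrophil markers present.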

Additional observations from a re-analysis of the deposited data

How the results depend on the processing

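Of the 18 splicing factors called by the 24 h limma test, 14 stayed called in all 18 fits without 1 liver and under a pseudocount of 0.1, a filter on low values, plain totals and a variance trend. The exceptions were Clk1, Srsf2, Srsf5 and Hnrnpf. The count of called genes was 19 to 22 under the alternatives and 15 to 19 without 1 liver. Of all genes, limma called 34.7% with a pseudocount of 0.1 and 36.5% with plain totals or a variance trend. Without 1 liver it called 31.6% to 35.2% of all genes. With a mean value of at least 1, limma called 20 of the 49 and 41.4% of all genes, and JTK 11 of the 49 and 18.5% of all genes. The count of the test among time points was 16 to 20 and 13 to 17. With plain totals some fitted peak times crossed lights on or lights off, for Hnrnpu from 23.2 to 0.01 h, for Hnrnpa2b1 from 23.8 to 1.64 h and for Hnrnpab from 12.6 to 10.4 h. With plain totals Hnrnpf had a ratio of 1.09 (limma adjusted p = 0.302). The 12 h count was 2 with a variance trend and 0 to 2 without 1 liver, 0 in 11 of 18 such fits. JTK called 10 to 14 of the 49 under the alternatives and 6 to 10 without 1 liver. It called 6 without ZT5 replicate 2 or without ZT17 replicate 2, and 7 without ZT13 replicate 2, ZT17 replicate 3 or ZT21 replicate 1, while the share of all genes called fell from 14.1% to 8.76% without ZT5 replicate 2. Of all genes, JTK called 17.4% with a period of 24 h alone, 14.3% with plain totals and 8.76% to 13.2% without 1 liver. Its calls of Tra2a, Srsf3, Hnrnpc, Hnrnpk and U2af1 held in all these fits, and those of Srsf1, Sf3b6, Hnrnpl, Hnrnpf, Hnrnpr and Tra2b in 16, 13, 10, 6, 4 and 2 of the 18 without 1 liver. In the wider list JTK called 27 with a period of 24 h alone and 9 to 20 without 1 liver (9 without ZT5 replicate 2 and 11 without ZT5 replicate 3), and limma called 46 to 50 and 37 to 46. The cause of these changes was not tested. The fewest reads were those of the U2af1l4 row ENSMUSG00000109378, with 24.5 in the lowest liver and a coefficient of variation of 32.5%. The design of 3 livers per time point in steps of 4 h limits what can be said of single time points and of 12 h curves. No paired analysis was possible because every liver came from a different mouse.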

Other observations

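Splicing factor genes make many transcripts that differ in structure, and the normalized values add all of them up. In the GENCODE M21 annotation, 30 of the 49 genes (61.2%) have a transcript marked for nonsense-mediated decay, against 28.4% of the 12832 protein-coding genes tested. A transcript with a retained intron is listed for 39 of the 49 (79.6%, against 58.2%), and the median number of transcripts per gene is 8 against 5. Such transcripts are known for SR and hnRNP genes, which limit their own protein through exons that carry a stop. Which isoforms rose at night in Tra2a, Tra2b or Srsf3 was not analysed here.

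Reads that match several genes are divided by RSEM, and the annotation shows where this could touch the splicing factors. Transcripts of other genes with at least 95% identity over 200 bases were found for Hnrnpa3 (23 genes), Hnrnpa1 (9), Hnrnpf (8), Tra2b (4), Srsf3 (4), Hnrnpk (2), U2af1 (2), Hnrnpr (2), Srsf2 (2) and Srsf10 (2), and 1 each for Srsf5, Clk3, Sf3b4, U2af2, Hnrnpd and a few others, so the values of these genes carry that uncertainty. For Tra2a, Hnrnpl, Srsf1 and Sf3b6 the number was 0. Exons on the opposite strand cover 43% of the exon bases of Srsf4, 29.1% of those of Hnrnpab, 16.1% of those of Sf3a2, 15.2% of those of Clk3, and for Srsf2 15.6% (Mettl23) and 9.7% (Mfsd11). For Hnrnpf the shares are 13.5% and 13% from 2 genes.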
